A study of Mus musculus with 6 samples.

Results

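The genes described here are 37 endoplasmic reticulum (ER) folding and secretory pathway genes, out of 27179 genes in the count table. They were taken as a list of gene symbols, not by a cut on their measured values. Earlier results of these data were known when the list was chosen. The symbols were matched to the gene identifiers of the table. All 37 were found and all 37 passed the filter on low counts. By role they comprise 11 lumenal chaperones and co-chaperones, 5 protein disulfide isomerases, 6 procollagen chaperones and prolyl isomerases, 7 regulators of the unfolded protein response and 8 genes of COPII transport and retrieval.

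Bulk RNA-seq was performed on fibroblasts sorted from the mammary glands of pubertal FVB/N mice (the strain in the sample labels, FVB/NJ in the methods of the study), 6 weeks of age and without any genetic change or treatment. The cells were Lin–CD24–Pdgfrα+, with CD45, CD31 and TER-119 as lineage markers, and were divided into a CD34hi and a CD34lo population. Each of 3 pools of 2 mice gave 1 library of each population. Same-numbered libraries of the 2 populations were taken to come from the same pool, and a single animal cannot be followed. The comparison asks how the secretory machinery differed between the 2 fibroblast populations of the same glands.

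Fibroblasts make and export large amounts of collagen and other matrix proteins, which enter the ER as unfolded chains. There they meet chaperones, disulfide isomerases and a set of procollagen-specific helpers, and leave in COPII-coated vesicles, while escaped ER proteins are brought back by KDEL receptors. When unfolded proteins accumulate, the sensors IRE1, ATF6 and PERK raise the expression of chaperones through the transcription factors XBP1, ATF6 and ATF4, the unfolded protein response.

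Several of these genes are textbook targets of that response, and the letters it reads can be seen in their promoters. RefSeq promoter sequences (GRCm38.p6, from 250 bases before to 50 bases after each gene's start) were at hand for 30 of the 37 genes. The ER stress response element, searched as CCAAT and CCACG with 9 bases between them on either strand, occurred in 7 of these 30 genes and in 39 of 32851 promoters of all genes (0.119%). With at most 1 of its 10 fixed letters changed, it occurred in 12 of the 30 genes and in 1.5% of all promoters. The following stretches are shown because they hold the full element, with both parts in capitals. They are written 5′ to 3′ on the gene's strand, and in *Calr*, *Creld2* and the second stretch of *Hsp90b1* the element lies on the opposite strand and so reads CGTGG and then ATTGG.
Hspa5, chr2:34772020-34772048, plus strand: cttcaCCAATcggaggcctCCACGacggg
Canx, chr11:50325795-50325823, minus strand: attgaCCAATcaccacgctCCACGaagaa
Hsp90b1, chr10:86705633-86705661, minus strand: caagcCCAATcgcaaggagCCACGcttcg
Hsp90b1, chr10:86705528-86705556, minus strand: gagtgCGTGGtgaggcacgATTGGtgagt
Calr, chr8:84847070-84847098, minus strand: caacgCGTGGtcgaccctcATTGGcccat
Creld2, chr15:88819515-88819543, plus strand: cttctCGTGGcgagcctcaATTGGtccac
Dnajc3, chr14:118937822-118937850, plus strand: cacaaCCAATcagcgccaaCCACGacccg
Pdia6, chr12:17266486-17266514, plus strand: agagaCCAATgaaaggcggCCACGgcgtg

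The second motif, TGACGTGG, is the core of the unfolded protein response element, which XBP1 is known to bind. It occurred in 3 of the 30 genes and in 222 of the 32851 promoters (0.676%). In *Sec23a* it lay after the gene's start. It is shown, in capitals, for the pair of genes that had it before the start. In *Kdelr3* it is on the opposite strand and reads CCACGTCA. Both genes were called higher in CD34lo fibroblasts. With a pool or library removed, *Sec24d* was called in 2 and *Kdelr3* in 5 of 9 refits. Whether the motif bears on their level was not tested.
Sec24d, chr3:123267459-123267488, plus strand: gcccgggcgccTGACGTGGcactagcaacc
Kdelr3, chr15:79516367-79516396, plus strand: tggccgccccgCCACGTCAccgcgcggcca

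One more motif, TGATGNAA, read by ATF4, occurred in 1 of the 30 genes (*Herpud1*) and in 3.97% of all promoters. The 5 letters CCACG alone occurred in 25 of the 30 genes and in 32.8% of all promoters. These matches are descriptions of sequence and do not show that a factor was bound in these cells.

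The libraries held between 28764779 and 52402410 counts, and the smallest count of any member in any library was 168. Of the genes of the sort, *Cd34* was between 2490 and 2639 CPM in CD34hi and between 476 and 793 CPM in CD34lo libraries (CPM, the count relative to the TMM-scaled library total). *Pdgfra*, sorted as positive in both populations, was between 637 and 922 CPM in CD34hi and between 1036 and 1416 CPM in CD34lo libraries (1.67-fold, adjusted p = 0.0148). *Cd24a*, the mouse gene of CD24 and sorted as negative, was low in both but 3.74-fold higher in CD34hi, with 14.3 to 21.8 against 4.57 to 5.43 CPM (adjusted p = 0.000103). The 5 fibroblast markers were each at 608 CPM or more in every library but differed in both directions, with *Igfbp5* higher in CD34hi (log2 fold change 3.45), *Lum*, *Pdgfra* and *Col1a2* higher in CD34lo (-1.28, -0.74 and -0.69) and *Dcn* not called. Of 15219 genes tested with edgeR's quasi-likelihood test, 35.6% had a Benjamini-Hochberg adjusted p under 0.05, 16.9% with higher expression in CD34hi and 18.7% with higher expression in CD34lo fibroblasts, and the median log2 fold change of all tested genes was -0.0064. All adjusted p-values come from this test unless another is named, and log2 fold changes are CD34hi over CD34lo, so a negative value means a lower level in CD34hi. An exact permutation test of 3 libraries against 3 cannot go below p = 0.1 and is not given for single genes.

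In these populations, 10 of the 37 genes passed the threshold (27%, against 35.6% of all genes tested). *Sdf2l1*, *Canx* and *Mia3* were higher in CD34hi fibroblasts, 3 of 37 (8.11%, against 16.9%). *P3h1*, *Fkbp10*, *Serpinh1*, *Crtap*, *Kdelr3*, *Xbp1* and *Sec24d* were higher in CD34lo fibroblasts, 7 of 37 (18.9%, against 18.7%). As a whole list, the share of genes called was thus near or below that of all genes in both directions. By role, 4 of the 6 procollagen chaperones and prolyl isomerases (66.7%, against 35.6% of all genes tested) and none of the 5 disulfide isomerases passed the threshold. Whether the roles differed in their share was not tested, and each holds few genes.

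**Figure D1:**
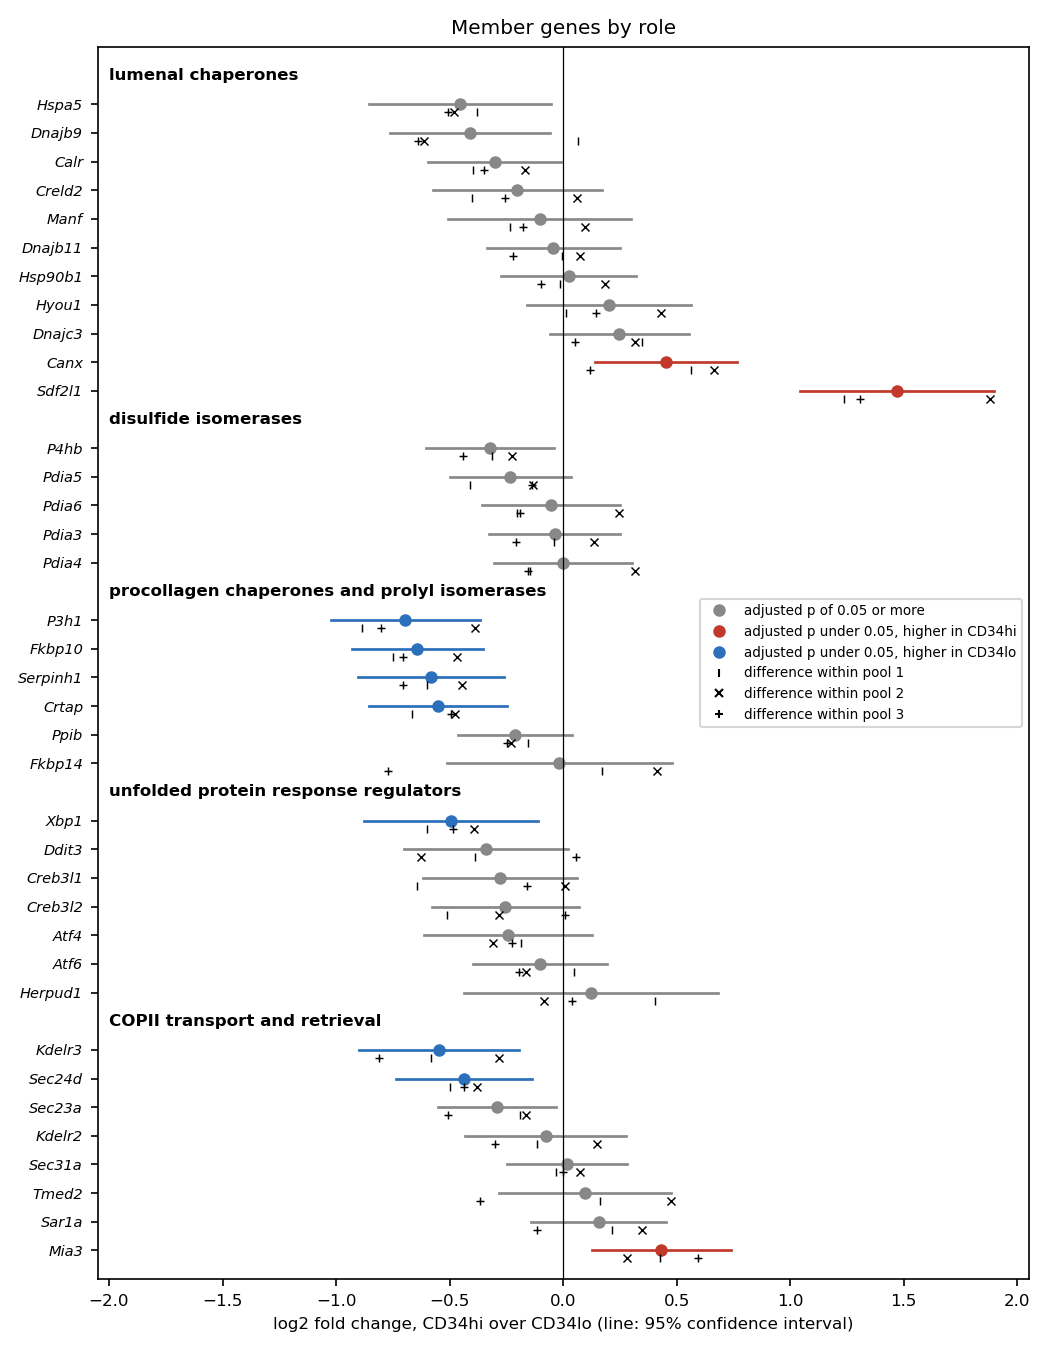
Log2 fold change (CD34hi over CD34lo) of the 37 genes grouped by role, with the 95% confidence interval of the fit as a line and the difference within each of the 3 mouse pools as a small mark. The 10 genes past the threshold are coloured, 3 to the right of 0 and 7 to the left, and the procollagen group lies furthest to the left.

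The libraries differed in the summed level of the list. Together the 37 genes took 1.08%, 1.13% and 0.937% of all counts in the CD34hi libraries of pools 1, 2 and 3, and 1.34%, 1.22% and 1.25% in the CD34lo libraries, without overlap between the populations. The mean sum was 10660 CPM in CD34hi and 12510 CPM in CD34lo libraries. *Serpinh1* held 1568 and 2347 CPM of it and *Hspa5* 1403 and 1921 CPM. Much of the difference in the sum thus lay in these abundant genes. The CD34hi library of pool 3 was the lowest of the 3 CD34hi libraries in 32 of the 37 genes. The same count was not made over all genes tested, so it cannot be called particular to this list. The log2 fold change was below 0 in 27 genes and above 0 in 10, with a median of -0.20. Within pools, 26, 19 and 29 of the 37 genes were lower in CD34hi, with median differences of -0.19, -0.09 and -0.22 in pools 1, 2 and 3. Without the CD34hi library of pool 3 the median log2 fold change of the 37 genes was -0.0813. That fit called 2 and 6 of them higher in CD34hi and CD34lo, against 2456 and 2780 of 15423 genes tested. Without the CD34lo library of pool 1 the median was -0.104, and without pool 1 altogether it was -0.0949. In bulk RNA, a lower level in all cells and a smaller share of cells with a high level cannot be told apart.

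The procollagen helpers modify, fold or hold collagen chains in the ER. Their summed level was 2384, 2357 and 2028 CPM in the CD34hi libraries of pools 1, 2 and 3 and 3499, 3090 and 3196 CPM in the CD34lo libraries, the widest separation of the 5 roles (log2 ratio -0.53). *Serpinh1* alone held 1568 of a mean of 2256 CPM in CD34hi and 2347 of 3262 CPM in CD34lo libraries. The sum thus mostly follows that gene. Of the 6 genes, 4 were called higher in CD34lo (66.7%, against 18.7% of all genes tested). All 6 had a log2 fold change below 0, with a median of -0.57, and in 5 of them every CD34lo library was above every CD34hi library (83.3%, against 25.3% of all genes tested).

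*P3h1* (gene 56401, chromosome 4, 119232915 to 119248977, GRCm38) encodes prolyl 3-hydroxylase 1, which modifies a proline of fibrillar collagen chains. Its level was 101, 111 and 87.3 CPM in the CD34hi libraries of pools 1, 2 and 3 and 187, 145 and 152.5 CPM in the CD34lo libraries. The populations did not overlap, and the CD34lo library of pool 1 was the highest. On the log2 scale CD34hi differed from CD34lo by -0.70 (standard error 0.14, adjusted p = 0.00547), 1.62-fold, and it lost the threshold only without pool 1 (adjusted p = 0.0605) among the 9 refits with 1 pool or 1 library removed.

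*Crtap* (gene 56693, chromosome 9, 114375131 to 114390712) encodes cartilage-associated protein, the partner of prolyl 3-hydroxylase 1 in a complex with cyclophilin B. It had 137.5, 136 and 119 CPM in CD34hi and 218, 190 and 167.5 CPM in CD34lo libraries. The lowest CD34lo library was above the highest CD34hi library. The difference in log2 was -0.55 (standard error 0.13, adjusted p = 0.012), and the adjusted p rose to 0.0988 without pool 1 and to 0.0775 without pool 2.

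*Ppib* (gene 19035, chromosome 9, 66060169 to 66066629), the gene of cyclophilin B, the remaining protein of that complex, had 246, 230 and 221 CPM in CD34hi and 273, 269 and 263 CPM in CD34lo libraries. The populations did not overlap, yet the difference was small and did not pass the threshold (log2 fold change -0.21, 95% confidence interval -0.46 to 0.04, adjusted p = 0.175). The 3 genes of the complex thus had the same order of populations in each pool, and the 2 that passed had larger point estimates than *Ppib*. Whether they differed from *Ppib* was not tested.

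*Serpinh1* (gene 12406, chromosome 7, 99345375 to 99353239) encodes HSP47, a chaperone that holds the procollagen triple helix until it leaves the ER. It had 1653, 1626 and 1424 CPM in CD34hi and 2504, 2217 and 2320 CPM in CD34lo libraries, again without overlap. The fit put it at -0.58 in log2 (standard error 0.14, adjusted p = 0.0121). The threshold was lost without pool 1 (adjusted p = 0.129), without pool 2 (adjusted p = 0.057) and without the CD34hi library of pool 2 (adjusted p = 0.0527), while the log2 fold change stayed between -0.65 and -0.51.

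*Fkbp10* (gene 14230, chromosome 11, 100415694 to 100424840) encodes FKBP65, a prolyl isomerase of the ER that acts on collagen and, with HSP47, is mutated in forms of osteogenesis imperfecta. It had 123, 124.5 and 107 CPM in CD34hi and 207, 172 and 174.5 CPM in CD34lo libraries, with no overlap. In log2 it differed by -0.64 (standard error 0.13, adjusted p = 0.00424), and it passed the threshold in each of the 18 alternatives, as did *Sdf2l1*. Its neighbour *Nt5c3b* overlaps it on the opposite strand and had 4296 counts against 36329 for *Fkbp10*, with a log2 fold change of -0.55 (adjusted p = 0.0107). The strand setting of the counting is not given in the sources used here, so reads of the 2 genes in the overlap could not be separated. *Fkbp14* (gene 231997), another collagen-directed prolyl isomerase, did not follow: it had 123, 129.5 and 69.9 CPM in CD34hi and 109, 97.1 and 119 CPM in CD34lo libraries. The low value in the CD34hi library of pool 3 lay below every other library, and the 2 populations overlapped (log2 fold change -0.02, 95% confidence interval -0.51 to 0.48).

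The other collagen-modifying enzymes of the ER, a list of 11 hydroxylases, glycosyltransferases and their relatives, showed 4 genes higher in CD34lo (36.4%, against 18.7% of all genes tested) and 1 higher in CD34hi (9.09%, against 16.9%), with a median log2 fold change of -0.33. *Plod1*, which encodes a lysyl hydroxylase of collagen, had 75.5, 82.1 and 100 CPM in CD34hi and 198, 187 and 186 CPM in CD34lo libraries (log2 fold change -1.15, adjusted p = 0.00024). *P3h3*, a further member of the prolyl 3-hydroxylase family, differed by -0.43 (adjusted p = 0.0135). In the opposite direction, *Colgalt2*, which encodes a collagen galactosyltransferase, had 29.2, 35.8 and 28.8 CPM in CD34hi and 6.99, 16.1 and 12.9 CPM in CD34lo libraries (log2 fold change 1.39, adjusted p = 0.00401). These genes did not overlap between populations either.

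**Figure D2:**
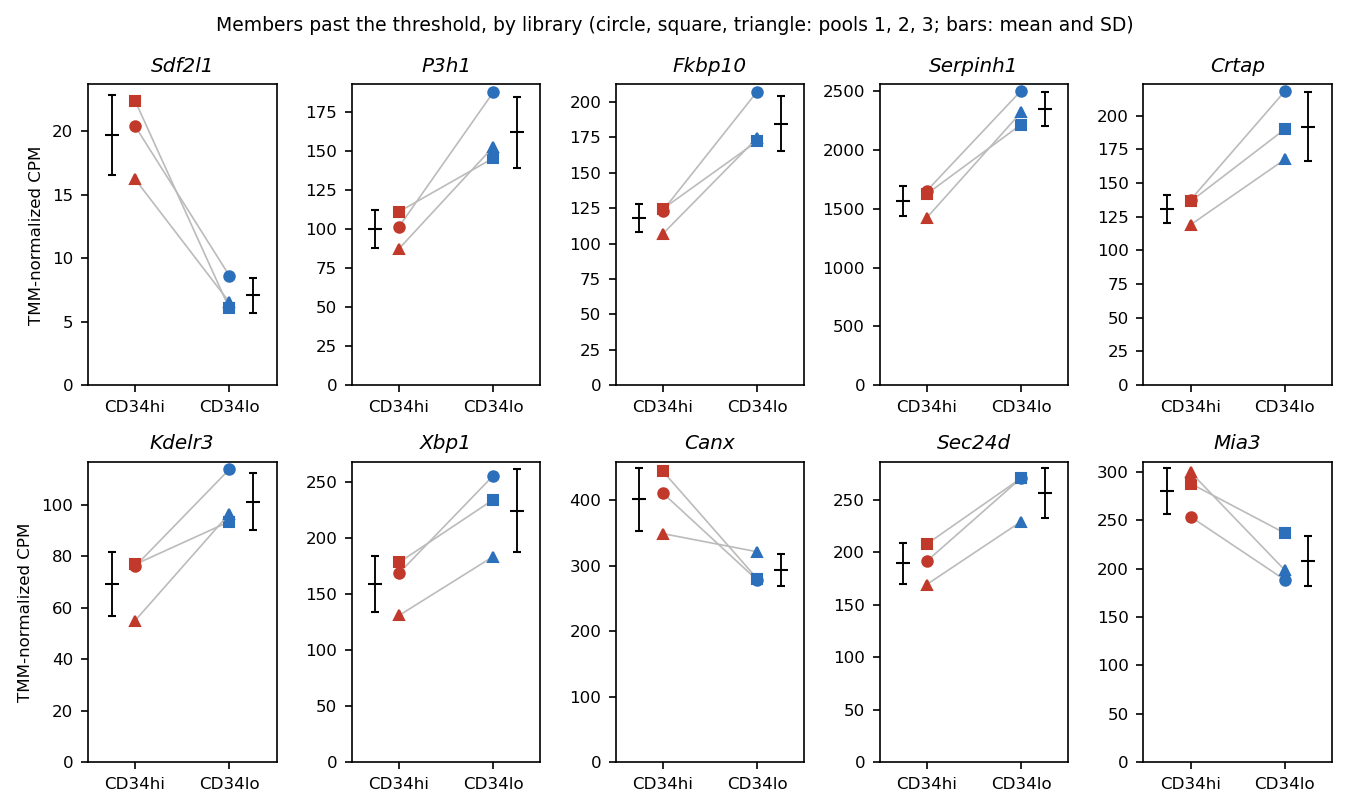
TMM-normalized CPM (linear axes from 0) of the 10 genes past the threshold in each library, with a line joining the libraries of the same mouse pool and the mean and SD of the 3 libraries beside the points. *Sdf2l1*, *Canx* and *Mia3* fall from CD34hi to CD34lo in every pool and the other 7 genes rise in every pool, but the *Canx* line of pool 3 is nearly flat.

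The lumenal chaperones, which hold unfolded chains of all kinds, had a median log2 fold change of -0.04. Of the 11 genes, 2 were higher in CD34hi (18.2%, against 16.9%) and none higher in CD34lo (against 18.7%). Their summed level was between 3610 and 4533 CPM in CD34hi and between 4340 and 4872 CPM in CD34lo libraries. The mean sums were 4125 and 4632 CPM, of which *Hspa5* held 1403 and 1921 CPM.

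*Sdf2l1* (gene 64136, chromosome 16, 17130138 to 17132383) encodes a small lumenal protein that works with the DnaJ co-chaperones of BiP. It showed the largest difference of the 37 genes and the only one beyond 1 on the log2 scale. It had 20.4, 22.4 and 16.2 CPM in CD34hi and 8.61, 6.04 and 6.53 CPM in CD34lo libraries, so that the lowest CD34hi library was well above the highest CD34lo library. The fitted difference was 1.47 in log2 (standard error 0.19, adjusted p = 0.000406), 2.77-fold, and it stayed between 1.27 and 1.67 with a pool or library left out. *Dnajb11* (gene 67838), which encodes one of those co-chaperones, had between 63.6 and 82.3 CPM in CD34hi and between 74.2 and 81.9 CPM in CD34lo libraries (log2 fold change -0.04, 95% confidence interval -0.34 to 0.25).

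*Canx* (gene 12330, chromosome 11, 50293957 to 50325673) and *Calr* (gene 12317, chromosome 8, 84842088 to 84846931) encode calnexin and calreticulin, the membrane-bound and the soluble lectin chaperone of newly made glycoproteins. *Canx* had 411, 444 and 349 CPM in CD34hi and 278, 280 and 321 CPM in CD34lo libraries. The populations did not overlap, but within pool 3 the log2 difference was 0.12, against 0.56 and 0.66 in pools 1 and 2. The fitted log2 difference was 0.45 (standard error 0.14, adjusted p = 0.0315). The threshold was lost without pool 1 (adjusted p = 0.188), without pool 2 (adjusted p = 0.252), and without the CD34hi or the CD34lo library of either of these pools, where the adjusted p lay between 0.0747 and 0.139. *Calr* had 522, 593 and 496.5 CPM in CD34hi and 688, 666 and 632 CPM in CD34lo libraries. Its populations did not overlap either, in the other direction, with a log2 fold change of -0.30 (95% confidence interval -0.59 to -0.01) that did not pass the threshold (adjusted p = 0.10, and 0.0496 in DESeq2). Thus the 2 lectin chaperones, whose promoters both hold the full ER stress element, were ordered oppositely in each pool. The difference between them was not tested.

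*Hspa5* (gene 14828, chromosome 2, 34772090 to 34776529) encodes BiP, the HSP70 of the ER and the most used readout of the unfolded protein response. It had 1467, 1579 and 1162 CPM in CD34hi and 1910, 2203 and 1649 CPM in CD34lo libraries. The CD34lo libraries were all above the CD34hi libraries, and the log2 difference was -0.38, -0.48 and -0.51 within pools 1, 2 and 3. In the unpaired fit the difference was -0.45 in log2 (standard error 0.18, adjusted p = 0.076), and with mouse pools entered as a replicate block the adjusted p from edgeR was 0.0227. DESeq2 gave an adjusted p of 0.0279, and limma-voom with the same block 0.013. *Hsp90b1* (gene 22027), which encodes GRP94, the HSP90 of the ER, had 1156, 1207 and 1054 CPM in CD34hi and 1168, 1062 and 1129 CPM in CD34lo libraries. These ranges overlapped almost fully (log2 fold change 0.03, 95% confidence interval -0.27 to 0.32).

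Of the remaining chaperone genes, *Dnajb9* (gene 27362), which encodes the BiP co-chaperone ERdj4, had 121, 105.5 and 105 CPM in CD34hi and 115, 161.5 and 163 CPM in CD34lo libraries. It was higher in CD34lo by similar amounts in pools 2 and 3 and not in pool 1, and did not pass the threshold (log2 fold change -0.41, adjusted p = 0.0693). It did pass without pool 1 (adjusted p = 0.0285) and without the CD34lo library of pool 1 (adjusted p = 0.0159), and narrowly with upper-quartile normalization (adjusted p = 0.0479) and in limma-voom with the replicate block (adjusted p = 0.0485). *Dnajc3*, *Hyou1*, *Manf* and *Creld2*, which encode a BiP co-chaperone, an HSP70-like exchange factor and a pair of secreted stress-response proteins, had log2 fold changes of 0.25, 0.20, -0.10 and -0.20. The ranges of the 2 populations overlapped for each of these 4 genes.

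The disulfide isomerases form and reshuffle the disulfide bonds of secreted proteins. None of the 5 genes passed the threshold, against 35.6% of all genes tested, a share that so few genes cannot be set apart from. *P4hb* (gene 18453), which encodes PDI and also serves as the second subunit of collagen prolyl 4-hydroxylase, had 591, 618 and 532 CPM in CD34hi and 735, 723 and 721 CPM in CD34lo libraries. The populations did not overlap and the CD34lo values lay close together (log2 fold change -0.32, 95% confidence interval -0.61 to -0.04, adjusted p = 0.0722). *P4hb* passed the threshold in limma-voom with the replicate block (adjusted p = 0.0481), in DESeq2 (adjusted p = 0.0204) and with upper-quartile normalization in edgeR (adjusted p = 0.039). *Pdia5* (gene 72599) likewise did not overlap between populations, with a log2 fold change of -0.23 (adjusted p = 0.157). *Pdia3*, which encodes the isomerase that works with calnexin and calreticulin, and its relatives *Pdia4* and *Pdia6* had log2 fold changes of -0.04, 0.00 and -0.05, and their confidence intervals lay between -0.36 and 0.30. In pool 2 these 3 genes were higher in CD34hi, by 0.13, 0.32 and 0.24 on the log2 scale, and in pools 1 and 3 they were lower.

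The regulators of the unfolded protein response had log2 fold changes below 0 in 6 of 7 genes, with a median of -0.26. *Xbp1* (gene 22433, chromosome 11, 5520967 to 5525872), which encodes the transcription factor that IRE1 activates by splicing its mRNA, was the only one past the threshold (14.3% higher in CD34lo, against 18.7% of all genes tested). It had 168, 178 and 131 CPM in CD34hi and 255, 234 and 183 CPM in CD34lo libraries. The CD34lo library of pool 3 was only slightly above the CD34hi library of pool 2, but within each pool CD34lo was higher. On the log2 scale it differed by -0.50 (standard error 0.17, adjusted p = 0.0487), close to the threshold, and with the replicate block the adjusted p was 0.00796 from edgeR. The unblocked call was lost without pool 1 (adjusted p = 0.226), without pool 2 (adjusted p = 0.135), without any single library other than the CD34lo library of pool 3 (adjusted p between 0.072 and 0.166), and without the filter on low counts (adjusted p = 0.0586). Counts per gene do not separate the spliced from the unspliced *Xbp1* mRNA.

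*Atf4* (gene 11911), which encodes the factor translated when PERK is active, had 355, 359 and 279 CPM in CD34hi and 404, 445 and 326 CPM in CD34lo libraries. It was higher in CD34lo in each pool, although the populations overlapped, and did not pass (log2 fold change -0.24, adjusted p = 0.281). *Ddit3* (gene 13198), which encodes CHOP, a factor that follows ATF4, had 22.4, 22.1 and 23.2 CPM in CD34hi and 29.3, 34.1 and 22.4 CPM in CD34lo libraries. The log2 fold change was -0.34 (adjusted p = 0.128), and its overlapping neighbour on the opposite strand, *Mars1*, had 7771 counts against 6084. Without pool 3 the adjusted p of *Ddit3* was 0.0329, and without the CD34lo library of pool 3 it was 0.0248. *Creb3l1* and *Creb3l2*, which encode OASIS and BBF2H7, ER-bound factors known from collagen-secreting bone and cartilage cells, had log2 fold changes of -0.28 and -0.26 with overlapping ranges. *Creb3l2* passed without the CD34hi library of pool 3 (adjusted p = 0.0471). *Atf6*, the gene of the ER-bound sensor, differed by -0.10. *Herpud1*, a gene of ER-associated degradation and the one with a match to the ATF4 motif, ranged from 129 to 224 CPM in CD34hi and from 125.5 to 216 CPM in CD34lo libraries, with a log2 fold change of 0.12.

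Of the COPII and retrieval genes, 1 of 8 was called higher in CD34hi (12.5%, against 16.9% of all genes tested) and 2 of 8 higher in CD34lo (25%, against 18.7%), with a median log2 fold change of -0.03, and 5 of the 8 did not pass. The coat starts with the GTPase SAR1, the inner layer of SEC23 and SEC24 picks up cargo, and SEC31 in the outer layer bends the membrane.

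*Sec24d* (gene 69608, chromosome 3, 123267496 to 123365636) encodes a cargo-binding SEC24 paralog of the inner coat. It had 192, 208 and 169 CPM in CD34hi and 271, 271 and 229 CPM in CD34lo libraries, with no overlap. Its log2 difference was -0.44 (standard error 0.13, adjusted p = 0.0298). The threshold was lost without pool 1 (adjusted p = 0.204), without pool 2 (adjusted p = 0.118) and without any single library other than the CD34lo library of pool 3 (adjusted p between 0.0588 and 0.101). *Sec23a* (gene 20334), the gene of its partner in the inner coat, had 124, 126 and 116 CPM in CD34hi and 141, 141 and 165 CPM in CD34lo libraries. The populations did not overlap, and the difference was near the threshold (log2 fold change -0.29, adjusted p = 0.0798). It passed only with upper-quartile normalization (adjusted p = 0.0425). By contrast, *Sec31a* of the outer layer was between 238 and 273 CPM in CD34hi and between 241 and 259 CPM in CD34lo libraries, with a log2 fold change of 0.02 (95% confidence interval -0.25 to 0.28).

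*Mia3* (gene 338366, chromosome 1, 183326236 to 183369565) encodes TANGO1, the receptor that links procollagen to the forming COPII carrier. It had 253, 288 and 299 CPM in CD34hi and 188, 236.5 and 198 CPM in CD34lo libraries, so that this procollagen export gene was higher in CD34hi without overlap, opposite to *Serpinh1*, *P3h1*, *Crtap* and *Fkbp10*. The fold change in log2 was 0.43 (standard error 0.14, adjusted p = 0.0352). The threshold was lost without any one pool (adjusted p between 0.0818 and 0.144), without the CD34hi libraries of pools 2 or 3 or the CD34lo libraries of pools 1 or 3 (adjusted p between 0.0743 and 0.116), and with upper-quartile normalization (adjusted p = 0.062). *Sar1a* and *Tmed2*, which encode the GTPase and a p24 cargo receptor, had log2 fold changes of 0.16 and 0.10 with overlapping ranges.

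*Kdelr3* (gene 105785, chromosome 15, 79516408 to 79527739) encodes a KDEL receptor, which returns escaped chaperones from the Golgi. It had 76.05, 76.8 and 55.0 CPM in CD34hi and 114, 93.4 and 96.5 CPM in CD34lo libraries. The CD34lo libraries were all above the CD34hi libraries (log2 fold change -0.55, standard error 0.16, adjusted p = 0.0236). The threshold was lost without any one pool (adjusted p between 0.0536 and 0.106) and without the CD34lo library of pool 1 (adjusted p = 0.0907). *Kdelr3* overlaps *Ddx17* on the opposite strand, which had 73784 counts against 20445 and a log2 fold change of -0.01 (adjusted p = 0.979). The paralog *Kdelr2* (gene 66913) did not follow, with 185, 192 and 136 CPM in CD34hi and 200, 173 and 167 CPM in CD34lo libraries (log2 fold change -0.08, 95% confidence interval -0.43 to 0.28).

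Read against the promoter motifs, the 7 genes with the full ER stress element had log2 fold changes between -0.45 (*Hspa5*) and 0.45 (*Canx*), with a median of -0.05 and 1 call, *Canx*. The 3 genes with TGACGTGG had values between -0.55 and -0.29, and 2 of them, *Kdelr3* and *Sec24d*, were called higher in CD34lo. Of the 20 genes with neither motif in the window, 2 were called higher in CD34hi and 4 higher in CD34lo, among them *Serpinh1*, *Crtap* and *P3h1*. For comparison, 16.9% of all genes tested were called higher in CD34hi and 18.7% higher in CD34lo. *Fkbp10* had no promoter entry. The groups are too small for more than this description.

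Levels between genes can be compared only per length of transcript, as RPKM (CPM per kilobase of the gene length in the table). On this scale *Serpinh1* was the most abundant of the 37 genes, with a mean of 642 RPKM in CD34hi and 960 in CD34lo libraries. It was followed by *Hspa5* (536 and 734 RPKM) and *Hsp90b1* (413 and 406 RPKM). At the lower end stood *Atf6*, with 11.6 and 12.5 RPKM, and *Sdf2l1*, with 17.7 and 6.37 RPKM, so that the gene with the largest difference was the one with the lowest level in CD34lo.

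**Figure D3:**
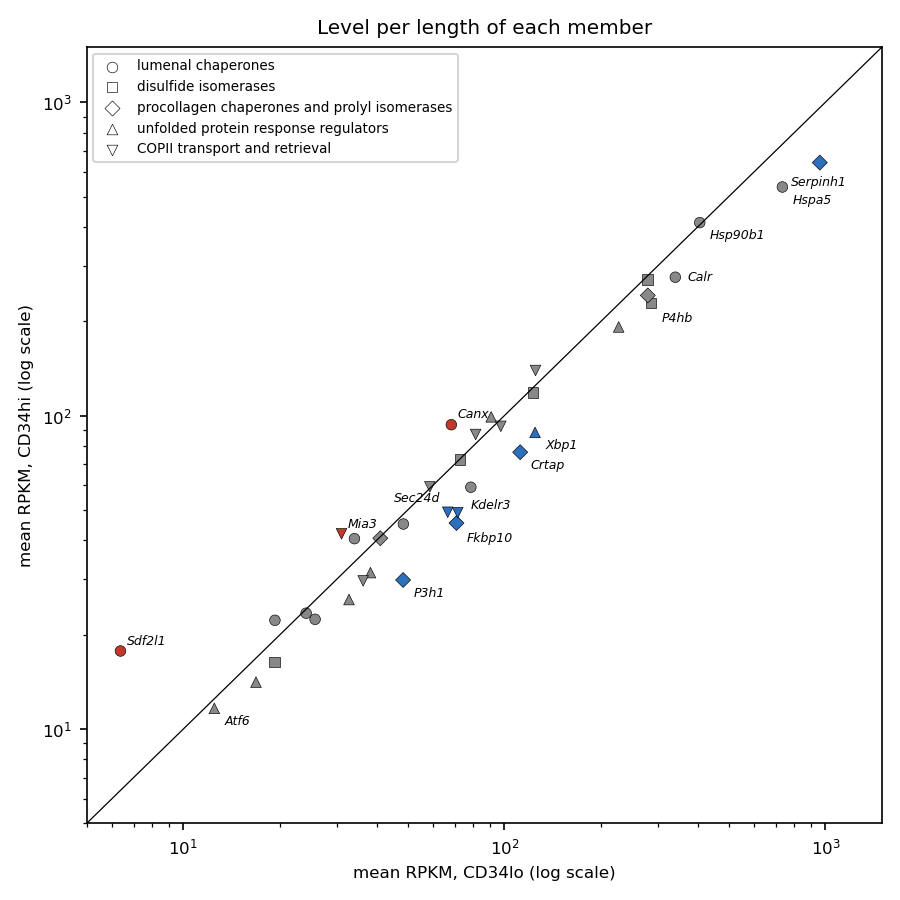
Mean RPKM of each of the 37 genes in CD34hi (vertical, log scale) against CD34lo libraries (horizontal, log scale), with the marker shape for the role, red and blue for genes called higher in CD34hi and CD34lo, and grey for genes not called. The diagonal is equal expression, and *Serpinh1* at the upper right and *Sdf2l1* at the lower left mark the ends of the CD34lo range.

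The 27 genes that did not pass the threshold had 95% confidence intervals between -0.85 and 0.68 on the log2 scale, all within 1 in either direction. A difference as large as that of *Sdf2l1* was therefore outside the interval of each of these genes. In 6 of the 27 (*Hspa5*, *Calr*, *P4hb*, *Pdia5*, *Ppib* and *Sec23a*) every CD34lo library was above every CD34hi library. Together with the genes called, this was so for 13 of the 37 genes (35.1%, against 25.3% of all genes tested). The reverse order held for 3 of the 37 (8.11%, against 24.8%).

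In the rest of the ER and secretory machinery, other ER folding and glycan-trimming genes had 9 of 38 genes higher in CD34lo (23.7%, against 18.7% of all genes tested) and none higher in CD34hi (against 16.9%), with a median log2 fold change of -0.15. They included *Prdx4*, the ER peroxiredoxin that feeds oxidizing power into disulfide formation, with 36.5, 32.8 and 33.3 CPM in CD34hi and 58.3, 61.2 and 58.0 CPM in CD34lo libraries (log2 fold change -0.79, adjusted p = 0.000473). *Fkbp11*, another ER prolyl isomerase, differed by -0.78 (adjusted p = 0.00942). Of 26 genes for entry into the ER (translocon, signal peptidase and oligosaccharyltransferase), 3 were higher in CD34lo (11.5%, below the 18.7% of all genes). None was higher in CD34hi (against 16.9%). Their median log2 fold change was -0.05, and *Ssr2*, a subunit of the translocon-associated complex, had the largest called difference (-0.63, adjusted p = 0.0107), followed by *Sec11c*, a signal peptidase subunit (-0.53, adjusted p = 0.0179).

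Stress sensors and genes of ER-associated degradation had the highest median log2 fold change of the pathway lists (0.12), with 4 of 24 higher in CD34hi (16.7%, against 16.9% of all genes tested) and 1 higher in CD34lo (4.17%, against 18.7%). The share called higher in CD34hi was thus that of all genes. *Edem2*, which encodes a protein that starts mannose trimming of misfolded glycoproteins, had 55.8, 68.6 and 86.8 CPM in CD34hi and 14.4, 20.4 and 18.4 CPM in CD34lo libraries. This was a difference of 1.99 (adjusted p = 9.39e-05), larger than that of any of the 37 genes. *Ube2j1*, the membrane-bound ubiquitin-conjugating enzyme of that pathway, differed by 0.53 (adjusted p = 0.0379). *Syvn1*, the gene of its ubiquitin ligase HRD1, differed in the other direction by -0.53 (adjusted p = 0.00983).

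Among 18 targets of PERK and ATF4, 4 were higher in CD34lo (22.2%, against 18.7%), led by the amino acid transporter subunit gene *Slc3a2* (-0.78, adjusted p = 0.0175) and the stress gene *Nupr1* (-0.66, adjusted p = 0.0282), and 1 was higher in CD34hi (5.56%, against 16.9%). That one, *Trib3*, was at most 4.85 CPM. Over the 18 genes the log2 fold change ranged from -0.89 to 3.60, with a median of -0.16. With the replicate block in edgeR, 7 of the 18 were higher in CD34lo and 1 in CD34hi, against 3181 and 2980 of the 15219 genes tested. Of 44 other COPII, COPI and cargo receptor genes, 6 were higher in CD34hi (13.6%, against 16.9%) and 2 in CD34lo (4.55%, against 18.7%), with a median of -0.02. *Ergic1* and *Tmed4*, which encode proteins cycling between ER and Golgi, were higher in CD34hi by 0.81 and 0.53 (adjusted p = 0.00128 and 0.00535). *Sec24a*, a paralog of *Sec24d*, was lower in CD34hi, with 130, 123 and 98.4 CPM in CD34hi and 193, 207 and 185 CPM in CD34lo libraries (-0.74, adjusted p = 0.00286), as was *Stx5a*, the gene of a fusion protein of the early Golgi (-0.48, adjusted p = 0.00599).

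**Figure D4:**
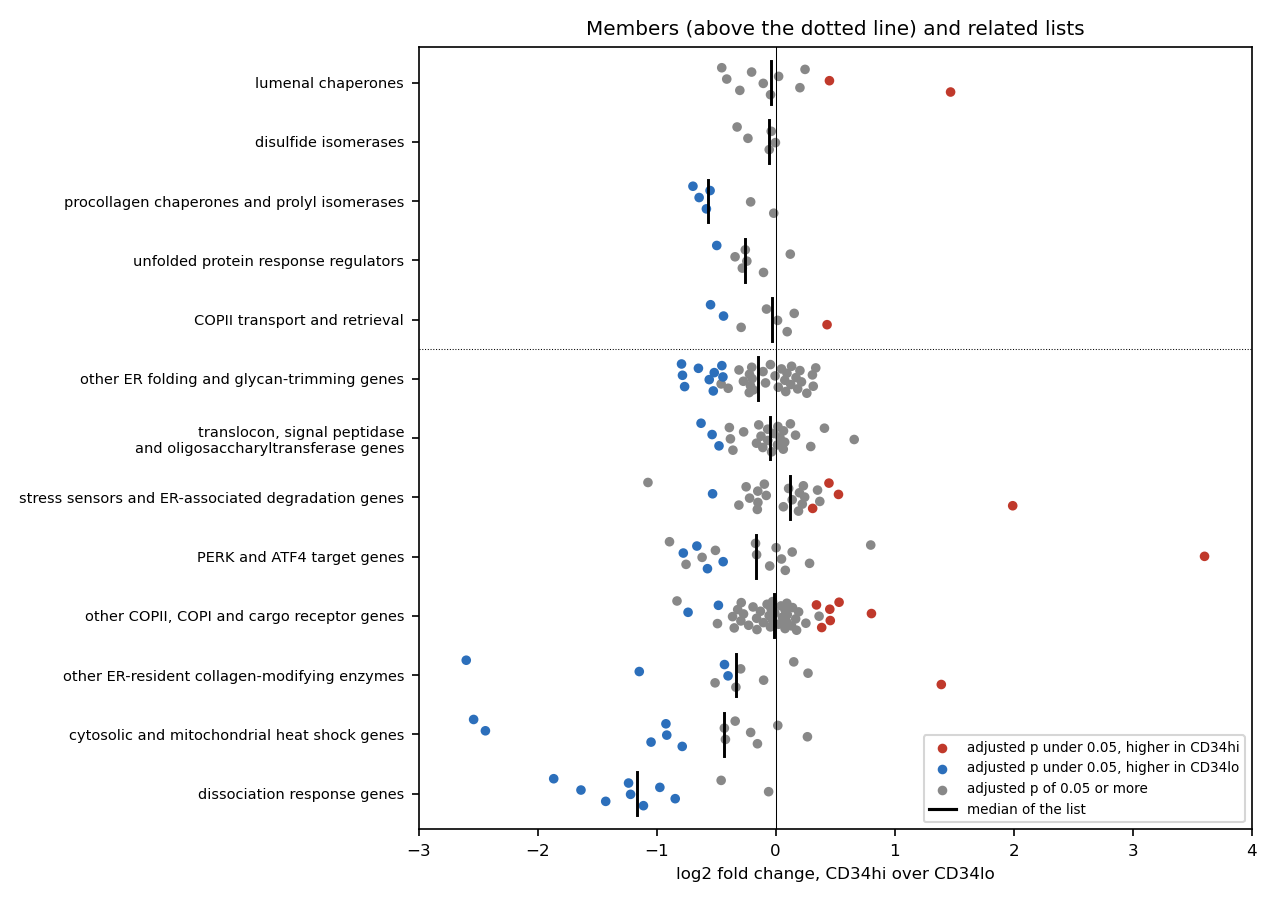
Log2 fold change (CD34hi over CD34lo) of each gene in the 5 roles of the 37 genes, above the dotted line, and in related lists below it, with genes past the threshold in red (higher in CD34hi) or blue (higher in CD34lo) and the list's median as a black bar. The medians of the procollagen, collagen-modifying, heat shock and dissociation lists are at -0.33 or lower, and the other lists sit closer to 0.

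Stress genes outside the ER moved with the same comparison. Of 13 cytosolic and mitochondrial heat shock genes, 6 were higher in CD34lo (46.2%, against 18.7%) and none in CD34hi (against 16.9%). Their summed level was 5308 to 6397 CPM in CD34hi and 9112 to 9912 CPM in CD34lo libraries. *Hspa1b* had 174, 177 and 191 CPM in CD34hi and 1115, 795 and 1241 CPM in CD34lo libraries (log2 fold change -2.54, adjusted p = 2.02e-05), and *Hspa1a*, a nearly identical copy between which reads may be split, differed by -2.44 (adjusted p = 1.74e-05). Of 10 immediate early genes that tissue dissociation is known to induce, 8 were higher in CD34lo (80%, against 18.7%) and none in CD34hi (against 16.9%). These 10 genes had a summed level of 20490 to 24860 CPM in CD34hi and 37460 to 50250 CPM in CD34lo libraries. Of 6 proliferation genes, 3 were higher in CD34lo (50%, against 18.7%). The part of these responses in the difference of *Serpinh1*, *Xbp1*, *Hspa5* or any other of the 37 genes was not tested.

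Markers of other cells were low next to the fibroblast genes but not equal between the populations. The 6 epithelial markers summed to between 34.7 and 41.1 CPM in CD34hi and between 68.8 and 69.7 CPM in CD34lo libraries. Of these 6, 2 were called higher in CD34lo (33.3%, against 18.7% of all genes tested) and none higher in CD34hi (against 16.9%). One of the 2 was *Acta2*, which contractile fibroblasts also express. The 4 endothelial markers summed to between 50.1 and 94.9 CPM in CD34hi and between 33.3 and 55.2 CPM in CD34lo libraries, and *Kdr* made up most of the CD34hi sum. The sum hides opposite directions: 1 of the 4 was called higher in CD34hi (25%, against 16.9% of all genes tested). Another 2 were called higher in CD34lo (50%, against 18.7%), and the median log2 fold change of the 4 was -1.17. The 4 Schwann cell markers summed to between 42.1 and 52.1 CPM in CD34hi and between 20.8 and 26.8 CPM in CD34lo libraries. Of these 4, 1 was called higher in CD34hi (25%, against 16.9%) and 2 higher in CD34lo (50%, against 18.7%). Their median log2 fold change was -0.685. The 2 keratinocyte markers summed to between 14.3 and 19.9 CPM in CD34hi and between 3.60 and 7.12 CPM in CD34lo libraries. Both were called higher in CD34hi (100%, against 16.9%). The 2 pericyte markers summed to at most 2.46 CPM in CD34hi and to between 7.36 and 11.5 CPM in CD34lo libraries. Both were called higher in CD34lo (100%, against 18.7%). Of the macrophage markers, *C1qa* and *Cd163* had at most 50 counts in a library and did not pass the filter. The 3 others summed to at most 2.98 CPM in CD34hi and between 27.3 and 47.5 CPM in CD34lo libraries, mostly *Fcgr2b*. Of these 3, 1 was called higher in CD34lo (33.3%, against 18.7%). Plasma cells secrete heavily, so their markers bear on this list: *Jchain* and *Mzb1* had at most 14 counts in a library and *Ms4a1* had none. *Cd79a* and *Cd79b* together lay between 0.662 and 1.34 CPM in CD34hi and between 4.64 and 27.9 CPM in CD34lo libraries. Both were called higher in CD34lo (100%, against 18.7%). Of the muscle markers, *Myf5* and *Myog* had at most 6 counts in a library and the others summed to at most 3.78 CPM. Of the 2 muscle markers tested, 1 was called higher in CD34lo (50%, against 18.7%). The part of these cells in the differences above was not tested.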

How the data were processed

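RNA was extracted from sorted CD34hi and CD34lo fibroblasts and polyA libraries were made with the TruSeq RNA v2 protocol and sequenced on an Illumina NextSeq. Reads were mapped to GRCm38/mm10 and assigned to genes by the authors with Rsubread. The deposited values are raw counts per gene and library, and strand setting and multi-mapping treatment are not given in the sources used here. The labels number the libraries and the methods of the study name the mouse pools, so the shared number was taken to mark a shared pool. The deviations of same-numbered libraries had r = 0.279, 0.0844 and 0.243 across genes in pools 1, 2 and 3. Genes are not independent replicates.

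Differential expression was tested with edgeR 4.0.16 in R 4.3.3 (filterByExpr, TMM factors between 0.967 and 1.04, quasi-likelihood test, Benjamini-Hochberg over 15219 genes, threshold 0.05). The common coefficient of variation was 19.7%. Each standard error is the size of the log2 fold change over the root of its F statistic, and intervals are 95%. Alternatives used limma 3.58.1, DESeq2 1.42.0, other normalizations and filters, the pool as a replicate block, thinned counts, and each pool or library left out. The 37 genes and the other lists were chosen with earlier results of these data known. Members were named by passing the threshold in the same direction in all 3 pools and the others given with values; from each pathway list at most 2 genes per direction were named, by size among called genes of mean log2 CPM of at least 3. *Trib3* and marker genes were named after their values were seen. Symbols came from a reference gene table. Of the marker lists, 1 gene is not reported here.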

Additional observations from a re-analysis of the deposited data

How the results depend on the processing

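Against 3 genes called higher in CD34hi and 7 higher in CD34lo, leaving out a pool or a library gave between 1 and 2, and between 2 and 8. Calls over all genes also fell in these refits. They went from 2570 and 2841 to between 1608 and 2456 higher in CD34hi and between 1860 and 2780 higher in CD34lo. The median log2 fold change of the 37 genes then lay between -0.219 and -0.0813. These fits have fewer samples. With the replicate block, edgeR called 3 and 8 genes, adding *Hspa5* (log2 fold change -0.455), and limma-voom called 3 and 10. Over all genes, the block gave 2980 and 3181 calls in edgeR and 3091 and 3327 in limma-voom. DESeq2 called 3 and 10, with 2776 and 3039 over all genes. Upper-quartile normalization called 2 and 10, with 2284 and 3128 over all genes, and moved the median of all genes to -0.0587. No filter gave 3 and 6, with 2668 and 2756 of 20655 genes. Limma-voom, RLE, thinning and at least 10 counts in every library each gave 3 and 7, with 2267 to 2672 and 2481 to 2854 over all genes. *Fkbp10* and *Sdf2l1* were called in all 18 alternatives.

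Sign changes were confined to genes whose log2 fold change was between -0.10 and 0.12, and none of them passed the threshold in any setting. With upper-quartile normalization *Hsp90b1* was at -0.028 and *Sec31a* at -0.038. *Pdia4* was at 0.011 in limma-voom, 0.026 without the filter, and 0.004 and 0.009 with the replicate block in edgeR and limma-voom, and *Fkbp14* was at 0.012 without the filter. With a pool or library left out, the log2 fold change ranged from -0.051 to 0.086 for *Hsp90b1*, from -0.219 to 0.065 for *Manf*, from -0.101 to 0.074 for *Dnajb11*, from -0.119 to 0.048 for *Pdia3*, from -0.147 to 0.11 for *Pdia4*, from -0.192 to 0.057 for *Pdia6*, from -0.242 to 0.292 for *Fkbp14*, from -0.051 to 0.334 for *Herpud1*, from -0.04 to 0.081 for *Sec31a*, from -0.077 to 0.311 for *Tmed2* and from -0.193 to 0.069 for *Kdelr2*. The cause was not tested. With 3 libraries a population, differences under about the size of those called could be missed, and counts per gene cannot show splicing or protein.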
